A study of Mus musculus with 9 samples.

Results

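Mice lacking Pfkfb3 in proximal tubular cells, studied at day 14 after ischemia-reperfusion injury (IRI), were compared with uninjured wild-type mice that had a sham operation. Each group gave 3 kidney RNA-seq libraries, so the comparison used 6 of the 9 libraries of the study and all 15974 genes with enough counts to be tested. Injury was made by clamping both renal arteries for 30 min. The knockout group is labelled PFKFB3 CKO and carries a conditional deletion in proximal tubular cells; its controls are littermates labelled PFKFB3 WT. The sources used here do not give the Cre driver, the strain, the age or the sex of the animals, or the time at which sham kidneys were taken. Knockout kidneys without injury were not analysed here, so genotype and injury differ together in this comparison and cannot be told apart. The remaining 3 libraries, wild-type kidneys at the same day after the same injury, are given beside the results where they show what injury did with the gene intact; both contrasts against sham share the sham libraries. Nothing in the labels ties each library to its own mouse; p-values therefore rest on the spread between these libraries, which may be technical.

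PFKFB3 makes fructose 2,6-bisphosphate, the allosteric activator of phosphofructokinase, and so speeds glycolysis. The proximal tubule of the kidney reabsorbs most of the filtered solutes and lives mainly on fatty acid oxidation; after ischemia its cells die, divide and redifferentiate, and cells that fail to recover keep expressing injury genes and drive inflammation and scarring. Whole-kidney RNA mixes this segment with the loop, the distal nephron, the collecting duct, vessels and immune cells. In such bulk tissue, fewer cells of a type and less RNA per cell cannot be told apart.

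Expression levels are given in CPM, counts scaled to the size of the library. Library totals ran from 18707315 to 19987842 in sham and from 15626792 to 16426817 in injured knockout kidneys. The first principal component held 39.2% of the variance over the 6 libraries and separated the groups. The second held 25.4%, and on it injured knockout replicate 1 lay at -46.7 while replicates 2 and 3 lay at 36.1 and 24.5. The biological coefficient of variation, the spread between replicates beyond counting noise, was 0.201 in the injured knockout group and 0.139 in sham. Transcripts of the mitochondrial genome made up 13.9%, 13.0% and 12.7% of counts in knockout replicates 1, 2 and 3, against 11.3%, 8.49% and 8.46% in sham and 6.45% ± 0.645 (SD, n = 3) in injured wild-type. The knockout and sham values did not overlap, and the difference of 3.79 percentage points gave p = 0.1 in a two-sided exact permutation test, the smallest that 3 against 3 allows.

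**Figure D1:**
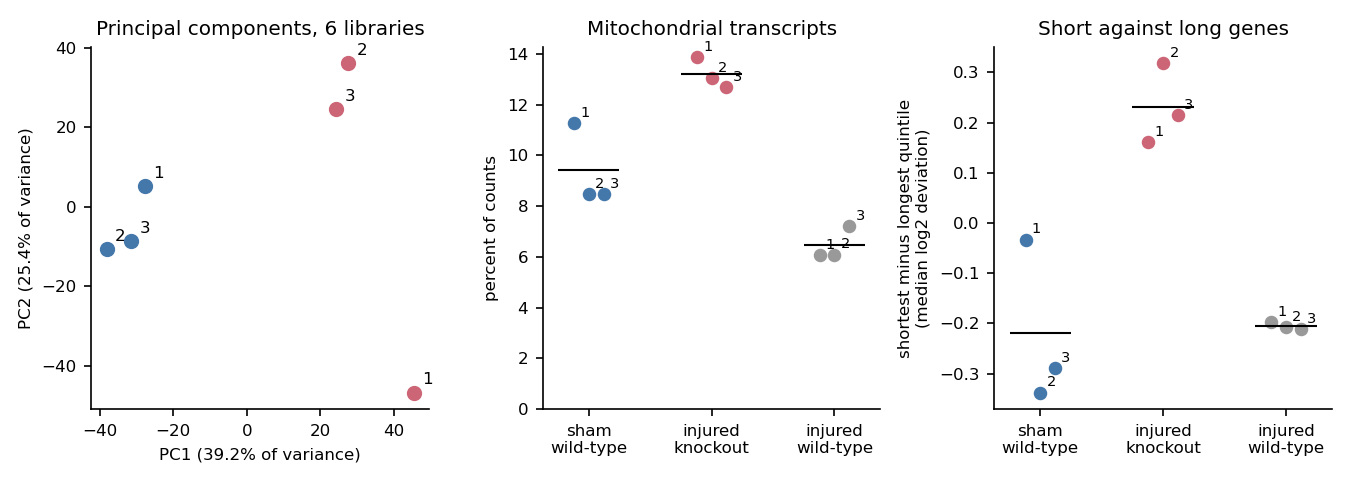
Left, the first and second principal components of log2 CPM over the 6 libraries. Middle, percent of counts from the mitochondrial genome in all 9 libraries. Right, the median deviation of the shortest quintile of genes minus that of the longest quintile, on the log2 scale. Points are libraries with their replicate number, in blue for sham, red for injured knockout and grey for injured wild-type, and bars are group means. Knockout replicate 1 lies apart on the second component, and in both other panels all 3 knockout libraries lie above all 3 sham libraries.

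Pfkfb3 itself, on chromosome 2 at 11471433 to 11554077 (GRCm38, minus strand), was measured first. Its level was 19.99, 20.2 and 21.9 CPM in sham and 25.2, 19.8 and 17.3 CPM in injured knockout kidneys. The groups overlapped, with a log2 fold change of 0.01 ± 0.17 (SE; adjusted p = 0.988; every adjusted p-value here is from the quasi-likelihood test of edgeR, adjusted by Benjamini and Hochberg's method over all tested genes). Injured wild-type kidneys held 36.2, 34.4 and 25.3 CPM, the lowest only just above knockout replicate 1 at 25.2 CPM. The log2 difference of injured knockout minus injured wild-type was -0.62 (adjusted p = 0.00773). The count covers the whole gene in the whole kidney, including cells and exons outside the deletion, so against sham it does not check the knockout.

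Of the 15974 genes, 2813 passed a false discovery rate of 0.05, which is 17.6%, with 1298 higher in the injured knockout (8.13%) and 1515 lower (9.48%). The same test called 58.2% of genes between injured wild-type and sham, and 55.9% between the 2 injured groups; these 3 contrasts share libraries. Most differences from sham were small. Among the called genes the median size was 1.496-fold, 84.4% lay under 2-fold, and 440 reached 2-fold, 222 up and 218 down. In 2770 of the 2813 called genes the CPM of the groups did not overlap, as was the case for 36.3% of all tested genes. Leaving out single libraries moved the count of called genes by over 1.5 times in 4 cases. It was 640 without sham replicate 2, 1064 without sham replicate 3, 1683 without knockout replicate 2 and 1560 without knockout replicate 3.

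**Figure D2:**
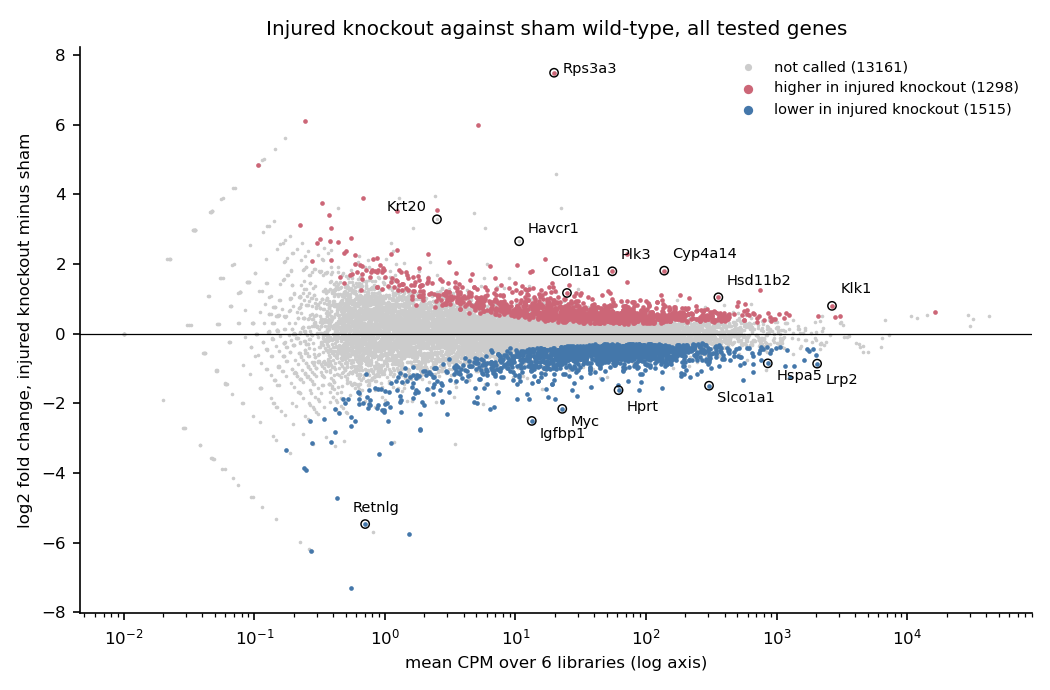
Mean CPM over the 6 libraries (log axis) against the log2 fold change of injured knockout minus sham, 1 point per tested gene. Red points were called higher (1298), blue points called lower (1515) and grey points not called; circled genes are named. Most called genes lie within 1 log2 unit of 0, and Havcr1 and Krt20 lie high but were not called.

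The direction of change followed the length and base composition of the transcript. In the shortest quintile of genes by exon length the median log2 fold change was 0.27, with 14.7% of genes higher and 2.04% lower. In the longest quintile it was -0.20, with 3.26% higher and 22% lower. By GC content the medians ran from -0.13 in the quintile with least GC to 0.19 in that with most. In single libraries the short-against-long measure was -0.03, -0.34 and -0.29 in sham replicates 1, 2 and 3, and 0.16, 0.32 and 0.22 in the knockout, with no overlap (two-sided exact permutation p = 0.1). Injured wild-type libraries lay at -0.21 ± 0.01 (SD, n = 3), within the sham range. A second fit with offsets for exon length and GC content, added after these values were seen, called 1649 genes, 667 up and 982 down, and held 48.4% of the calls above. Its counts are given below as the length-corrected fit where they differ by over 1.5 times. What part of the trend is technical was not tested.

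**Figure D3:**
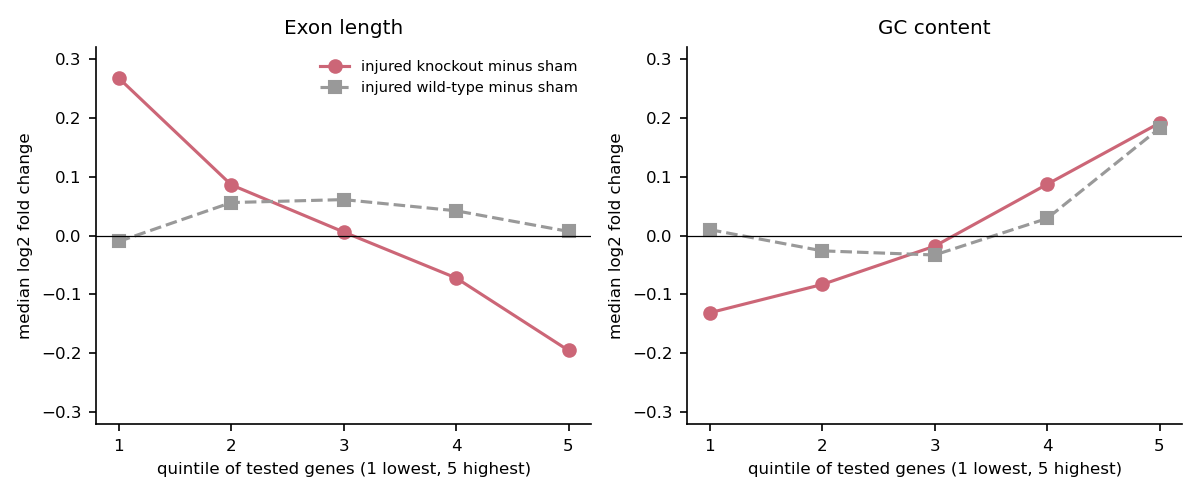
Median log2 fold change against sham in quintiles of the tested genes by exon length (left) and GC content (right), for injured knockout (red) and injured wild-type (grey) kidneys. The knockout medians fall from 0.27 to -0.20 with length, while those of injured wild-type stay between -0.01 and 0.06; with GC they end at 0.19 and 0.18.

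The clearest group of lower genes was the unfolded protein response of the endoplasmic reticulum. This response is set off by misfolded secretory protein; its sensors raise chaperones, folding enzymes and degradation factors. Of 29 members of an unfolded protein and integrated stress list, 12 fell and 0 rose, against 9.48% of all tested genes that fell. The median log2 fold change of the list was -0.41, beside 0.01 over all tested genes. Leaving out single libraries gave 8 to 16 lower members, and the length-corrected fit gave 14. All 3 knockout libraries lay below all 3 sham libraries in summed level, 4156 to 5089 against 6150 to 6222 CPM. Injured wild-type kidneys held 3261 to 3855 CPM.

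The promoters of 5 of these genes held the endoplasmic reticulum stress element, ERSE, to which ATF6 binds together with NF-Y. The windows of 3 genes that fell are given to show where the element lies, as 250 bases before to 50 after the start in the RefSeq table of GRCm38.p6, with the match on either strand in capitals. They are Hspa5 on the plus strand at chr2:34771840-34772139, Hsp90b1 on the minus strand at chr10:86705395-86705694 and Dnajc3 on the plus strand at chr14:118937682-118937981.
Hspa5: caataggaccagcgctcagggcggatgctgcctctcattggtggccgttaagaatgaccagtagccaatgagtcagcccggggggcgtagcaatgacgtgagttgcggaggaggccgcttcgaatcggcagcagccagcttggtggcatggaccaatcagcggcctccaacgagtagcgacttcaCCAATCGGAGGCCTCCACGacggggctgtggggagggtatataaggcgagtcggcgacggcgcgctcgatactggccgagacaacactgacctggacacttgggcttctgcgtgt
Hsp90b1: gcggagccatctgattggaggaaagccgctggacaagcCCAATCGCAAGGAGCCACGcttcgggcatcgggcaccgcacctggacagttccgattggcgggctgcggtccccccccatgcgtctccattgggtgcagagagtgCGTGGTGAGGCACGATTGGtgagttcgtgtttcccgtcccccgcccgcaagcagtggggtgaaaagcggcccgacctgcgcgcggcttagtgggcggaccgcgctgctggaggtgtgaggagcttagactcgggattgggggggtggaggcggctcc
Dnajc3: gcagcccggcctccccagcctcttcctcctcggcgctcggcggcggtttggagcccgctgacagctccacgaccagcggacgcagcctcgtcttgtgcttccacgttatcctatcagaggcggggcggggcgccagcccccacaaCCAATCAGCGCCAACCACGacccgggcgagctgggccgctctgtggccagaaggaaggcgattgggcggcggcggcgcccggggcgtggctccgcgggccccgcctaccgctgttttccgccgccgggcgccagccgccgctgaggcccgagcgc
The window of Hsp90b1 held 2 matches, 1 on each strand. Creld2 and Pdia6 held 1 each, so that 5 of the 10 fallen genes with a window in the table held ERSE. Among 14 list members with a window that did not fall, Calr held ERSE and Herpud1 the related ERSE-II. Over all 32851 windows the share with ERSE was 0.119%. The list holds known ERSE genes, and a match is a description of these letters, not of binding.

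Hspa5 encodes BiP, the main chaperone of the endoplasmic reticulum. Its level was 1104, 1119 and 1081 CPM in sham and 727.6, 530.2 and 572.2 CPM in injured knockout kidneys, a log2 fold change of -0.85 ± 0.14 (SE; adjusted p = 0.00622). No knockout library came near the sham range. Hsp90b1, the chaperone GRP94, fell by 0.75 ± 0.13 (SE) on the log2 scale, from 318.4, 351.2 and 334.6 to 242.6, 172.6 and 183.4 CPM. Dnajc3, a co-chaperone that also restrains the kinase PERK, went from 233.5, 290.7 and 273.6 to 159.3, 157.2 and 156.3 CPM (log2 fold change -0.76, adjusted p = 0.00492). The 3 knockout values of Dnajc3 lay close together and below every sham value.

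Atf6, the sensor that is cleaved to a transcription factor, was itself lower, at 41.5, 40.6 and 41.1 CPM against 58.3, 75.5 and 69.4 CPM (log2 fold change -0.72 ± 0.11, adjusted p = 0.00505). The disulfide isomerase Pdia4 fell by 0.67 on the log2 scale and Edem1, which hands misfolded glycoproteins to degradation, by 0.88. Hyou1, a large chaperone of the same compartment, stood at 167.5, 109.5 and 116.8 CPM in the knockout against 229.8, 268.5 and 257.3 CPM in sham. In Hspa5, Hsp90b1, Hyou1, Creld2 and Sdf2l1 knockout replicate 1 was the highest of the 3. Creld2 lost its call without sham replicate 2 (adjusted p = 0.0546). Pdia6, Dnajb9 and Sdf2l1 had log2 fold changes of -0.42, -0.41 and -0.92 and each lost the call when sham replicate 2, sham replicate 3, knockout replicate 2 or knockout replicate 3 was left out; Pdia6 lost it without sham replicate 1 as well. Pdia6 overlaps Atp6v1c2 on the other strand, and the sources used here do not say whether counting used strand.

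Xbp1, Atf4 and Ddit3, transcription factors of the other branches of the stress response, were not called. Xbp1, spliced by the sensor IRE1, stood at 391.1, 159.2 and 201.6 CPM in the knockout and 316.7, 313 and 241.8 CPM in sham (adjusted p = 0.624); without knockout replicate 1 it was called lower, with a log2 fold change of -0.69 (adjusted p = 0.026). Atf4, the effector of PERK, had a log2 fold change of 0.07 (adjusted p = 0.784), and its target Ddit3 one of 0.81 (adjusted p = 0.077); Ddit3 was called higher by DESeq2, with no filter on low counts and without knockout replicate 2. Phgdh, which starts serine synthesis and is a target of ATF4, differed from the chaperones in what wild-type injury did. Its level was 9.03, 9.52 and 10.4 CPM in sham, 4.68, 4.67 and 4.95 CPM in injured knockout and 25.7, 28.3 and 25.6 CPM in injured wild-type kidneys. It fell by 1.02 ± 0.14 (SE) on the log2 scale in the knockout, while wild-type injury raised it by 1.46. Hspa5, Dnajc3 and Edem1 were lower than sham in injured wild-type kidneys too, with log2 fold changes of -0.87, -1.07 and -1.30. The cytosolic chaperones Hsph1 and Hsp90ab1 fell by 0.89 and 0.62 on the log2 scale in the knockout; Hsp90ab1 lost its call without sham replicates 2 or 3 or knockout replicates 2 or 3.

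Some proximal tubule genes were lower, and most were not called. Over all tested genes 9.48% fell and 8.13% rose. The lists hold mainly transport and endocytosis genes, so the kind of gene that fell was set by the lists. Of 37 tested members of the S1 and S2 list, 6 fell and 3 rose, and of 19 S3 members 4 fell and 0 rose. Medians were -0.22 and -0.33 on the log2 scale, where wild-type injury gave -1.98 and -2.38. Slc34a1, the main phosphate transporter and a defining marker, stood at 5765, 6892 and 5762 CPM against 6557, 6183 and 7170 CPM in sham (log2 fold change -0.11 ± 0.20, adjusted p = 0.727) and at 1126 to 2047 CPM in injured wild-type. Slc22a6, the organic anion transporter OAT1, likewise overlapped sham (log2 fold change -0.11). The count of S3 members lower than sham was 2 without sham replicate 2 and 8 without injured wild-type replicate 3, and the 3 higher S1 and S2 members became 0 to 1 without sham replicates 2 or 3 or knockout replicates 2 or 3, and 0 in the length-corrected fit.

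Both receptors of tubular protein uptake were lower. Lrp2, which encodes megalin, stood at 2196, 2925 and 2782 CPM in sham and 1758, 1292 and 1297 CPM in injured knockout kidneys (log2 fold change -0.86 ± 0.16, adjusted p = 0.00767). Cubn, its partner cubilin, stood at 481.7, 546 and 518.9 against 317.2, 355 and 369.5 CPM (log2 fold change -0.57, adjusted p = 0.0068; 0.0638 in the length-corrected fit). In neither gene did the groups overlap. Amn, the short subunit that brings cubilin to the surface, was higher, with a log2 fold change of 0.45; its call ended without sham replicates 2 or 3 or knockout replicates 2 or 3, and in the length-corrected fit its log2 value was 0.10. In injured wild-type kidneys Lrp2 held 395.4 to 456.1 CPM.

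Among the transporters, Slco1a1, an organic anion carrier of the S3 segment that is higher in male mice, showed the largest fall of either list. It stood at 347.3, 544.3 and 452.7 CPM in sham and 136.1, 164.9 and 176 CPM in the knockout, a log2 fold change of -1.495 ± 0.23 (SE; adjusted p = 0.00505), and at 34.0 to 67.1 CPM in injured wild-type. Slc3a1, the heavy subunit of the cystine transporter, went from 339.4, 489.6 and 418.4 to 193.7, 223.7 and 207.5 CPM. The lactate and pyruvate carrier Slc5a8 fell by 0.76 on the log2 scale, and Slc16a9, a monocarboxylate carrier, by 0.97. None of these 4 lost its call when a single library was left out. The scaffold Pdzk1, with a log2 fold change of -0.92, lost it without sham replicate 2. Hnf4a, the nuclear receptor that maintains the proximal tubule program, had a log2 fold change of -0.46, with calls ending without sham replicates 2 or 3, injured wild-type replicate 1 or knockout replicates 2 or 3.

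Collecting duct genes were higher in the injured knockout than in sham. Principal cells reabsorb sodium and water, and intercalated cells secrete acid or base. Of 12 tested principal cell members 7 rose, of 17 intercalated cell members 10 rose, and 0 of either fell, beside the 8.13% of all genes that rose. Medians were 0.67 and 0.51 on the log2 scale. Summed levels of the principal cell list were 1253, 1160 and 1058 CPM in sham, 2815, 1557 and 1595 CPM in the knockout and 785.1 to 1206 CPM in injured wild-type. Knockout replicate 1 stood far above the others, and was the highest of the 6 libraries in 11 of the 12 principal cell members and in 15 of the 17 intercalated cell members, against 20.6% of all tested genes.

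The counts depended on single libraries. Principal cell members called higher were 4, 3 and 3 without sham replicates 1, 2 and 3, 3 without knockout replicate 1 and 3 in the length-corrected fit. Intercalated cell members were 4 and 5 without sham replicates 2 and 3, 6 without knockout replicate 1 and 6 in the length-corrected fit. A smaller set held in every setting. Hsd11b2, which protects the mineralocorticoid receptor from glucocorticoids, stood at 229.5, 224.2 and 248 CPM in sham and 530.9, 462.5 and 452.1 CPM in the knockout (log2 fold change 1.04 ± 0.13, adjusted p = 0.00387), with injured wild-type kidneys at 219.8 to 295.2 CPM. Scnn1b, the beta subunit of the epithelial sodium channel, stood at 53.1, 54.5 and 61.9 against 124.9, 99.1 and 93.0 CPM. Kcne1, a potassium channel subunit, stood at 14.4, 12.3 and 15.9 against 40.4, 39.8 and 32.3 CPM, a log2 fold change of 1.40 ± 0.19 (SE).

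Among intercalated cell genes, Insrr, a receptor that senses alkaline pH, showed the largest rise, from 29.6, 26.9 and 36.2 to 94.5, 57.3 and 64.4 CPM (log2 fold change 1.22 ± 0.19, adjusted p = 0.00505). It was below sham in injured wild-type kidneys, with a log2 fold change of -0.67. The proton pump subunit Atp6v1c2 rose by 1.01 on the log2 scale, the anion exchanger Slc4a9 of beta-intercalated cells by 0.90, and the transcription factor Hmx2 from 11.1, 8.14 and 12.1 to 27.6, 20.1 and 22.3 CPM. All 3 kept the call when any single library was left out. Foxi1, the master regulator of the lineage, had a log2 fold change of 0.44 and an adjusted p of 0.0498 and lost its call in 12 of 19 alternatives. Slc4a1, the chloride-bicarbonate exchanger of alpha-intercalated cells, was not called, at 34.2, 23.6 and 25.03 CPM against 18.4, 29.96 and 30.0 CPM. Aqp2, the water channel and a defining principal cell marker, was not called either, at 1434, 476.9 and 536 CPM against 568.1, 441.8 and 341 CPM (adjusted p = 0.141), with knockout replicate 1 alone outside the sham range by a wide margin.

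Of 14 distal convoluted and connecting tubule members 3 rose and 0 fell, beside 8.13% and 9.48% of all tested genes. The count of higher members was 1 without sham replicates 2 or 3, and 5 without injured wild-type replicate 3. Sgk1, the aldosterone-induced kinase that activates sodium channels, stood at 210, 154.5 and 236.8 CPM in sham and 321.1, 322.3 and 326.7 CPM in the knockout (log2 fold change 0.69, adjusted p = 0.0107). Klk1, tissue kallikrein, was at 2072, 1645 and 2099 against 3289, 3727 and 3091 CPM and lost its call without sham replicates 2 or 3 or knockout replicate 2 and in the length-corrected fit. In the thick ascending limb list of 15 members, 2 fell and 1 rose, both shares near those of all tested genes. The 2 lower became 0 without sham replicate 2 and 1 without knockout replicate 3. The 1 higher became 0 without sham replicates 2 or 3 or knockout replicate 3 and in the length-corrected fit. Without injured wild-type replicates 2 or 3 the higher count was 2. Umod, which encodes uromodulin, the most abundant urinary protein, stood at 1405, 2400 and 1537 CPM in sham and 807.8, 1197 and 817.3 CPM in the knockout (log2 fold change -0.92), and lost its call without sham replicate 2 or knockout replicate 3.

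**Figure D4:**
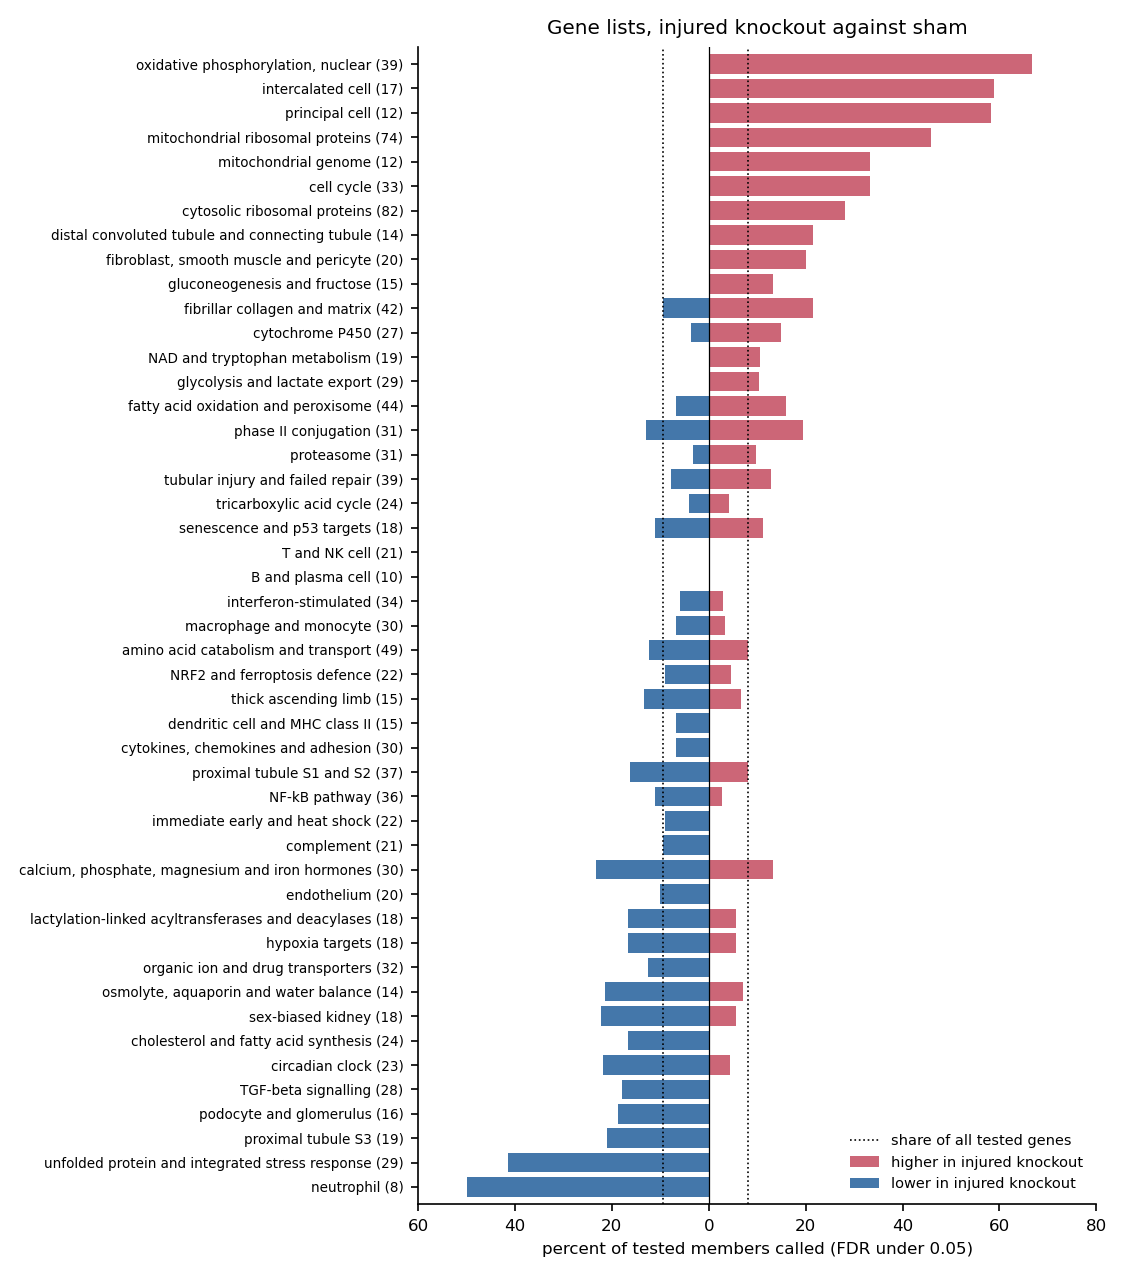
Percent of the tested members of each gene list called higher (red, to the right) or lower (blue, to the left) in the injured knockout against sham, with the number of tested members in brackets; lists with under 8 tested members are left out. Dotted lines mark the shares over all tested genes, 8.13% higher and 9.48% lower. The nuclear respiratory chain, collecting duct and mitochondrial ribosomal protein lists reach furthest to the right, and the neutrophil and unfolded protein lists furthest to the left.

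Glomerular and endothelial genes were lowest in knockout replicate 1. Of 16 podocyte and glomerulus members 3 fell; of 20 endothelial members 2 fell, a share near the 9.48% of all tested genes. Medians were -0.66 and -0.39. Every one of the 20 endothelial members had its lowest level of the 6 libraries in knockout replicate 1, and 15 had their highest in sham replicate 1. Summed endothelial levels were 1714, 1434 and 1274 CPM in sham and 515.1, 1283 and 1314 CPM in the knockout, where replicates 2 and 3 lay inside the sham range. Flt1, a VEGF receptor, stood at 97.5, 93.2 and 81.7 against 25.1, 57.4 and 55.9 CPM, and Thsd7a of the podocyte at 33.9, 20.1 and 29.6 against 3.65, 13.95 and 13.2 CPM. Nphs1, which encodes nephrin of the slit diaphragm, was at 4.75 CPM in knockout replicate 1 and at 29.0 and 35.5 CPM in the other two, inside the sham range of 28.0 to 50.7 CPM. The 3 lower glomerular members became 1, 1 and 0 without sham replicates 1, 2 and 3, the 2 endothelial ones 1, 0 and 0, and both were 0 in the length-corrected fit. The sources used here do not say which part of the kidney was taken for each library, and its part in these values was not tested.

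Many nuclear genes of the respiratory chain were higher. Of 39 tested nuclear genes for its subunits 26 rose and 0 fell, beside 8.13% and 9.48% of all tested genes. Their median log2 fold change was 0.49, where wild-type injury lowered 38 of the 39 with a median of -0.73. Summed levels were 15190 to 17140 CPM in sham, 19190 to 21880 CPM in the knockout and 7999 to 8371 CPM in injured wild-type. Uqcrq, a small subunit of complex III, stood at 418.9, 320.4 and 354.3 CPM in sham and 597.6, 697.6 and 590.8 CPM in the knockout (log2 fold change 0.79 ± 0.12, adjusted p = 0.00505). Ndufa1 of complex I stood at 160.2, 123.1 and 138.2 against 220.1, 262.9 and 219.2 CPM. Sham replicate 1 was the highest sham library in both, yet below every knockout library.

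These genes are short, with a median exon length of 1831 bases, which lies in the quintile of genes whose median shift was 0.27. In that quintile 14.7% of genes rose. In the length-corrected fit 8 of the 39 rose and the median was 0.21. The count was 4 without sham replicate 2, 7 without sham replicate 3 and 13 without knockout replicate 2. Uqcrq and Ndufa1 kept their calls in every alternative, the length-corrected fit included (log2 fold changes 0.60 and 0.41). The mitochondrial genome gave 4 higher of 12 tested genes, with a median of 0.53; this was 11 without sham replicate 1, 0 without sham replicates 2 or 3, 8 without injured wild-type replicate 3 and 2 without knockout replicate 2, and 2 in the length-corrected fit. The most abundant of the called ones, mt-Nd1 of complex I, stood at 15540, 11400 and 11760 CPM in sham and 19900, 20990 and 18780 CPM in the knockout. It lost its call without sham replicates 2 or 3 or any of the knockout replicates.

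Some ribosomal proteins, listed after their values were seen, were also above sham. Of 74 mitochondrial ribosomal proteins 34 rose and 0 fell (median 0.35), and of 82 cytosolic ones 23 rose and 0 fell (median 0.31). Over all tested genes 8.13% rose and 9.48% fell. Wild-type injury lowered 55 of the mitochondrial ones and raised 3 (median -0.49). It raised 28 of the cytosolic ones and lowered 3 (median 0.17). Between the injured groups the cytosolic median was 0.07, knockout minus wild-type, and the mitochondrial one 0.80. The length-corrected fit gave 20 and 6 higher, with 1 cytosolic member lower. Mitochondrial ribosomal calls were 6, 11 and 16 without sham replicate 2, sham replicate 3 and knockout replicate 2. Cytosolic ribosomal calls were 54, 0 and 1 without sham replicates 1, 2 and 3, and 12, 8 and 7 without knockout replicates 1, 2 and 3. Many cytosolic ribosomal proteins have near-identical pseudogenes, which makes their counts uncertain.

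**Figure D5:**
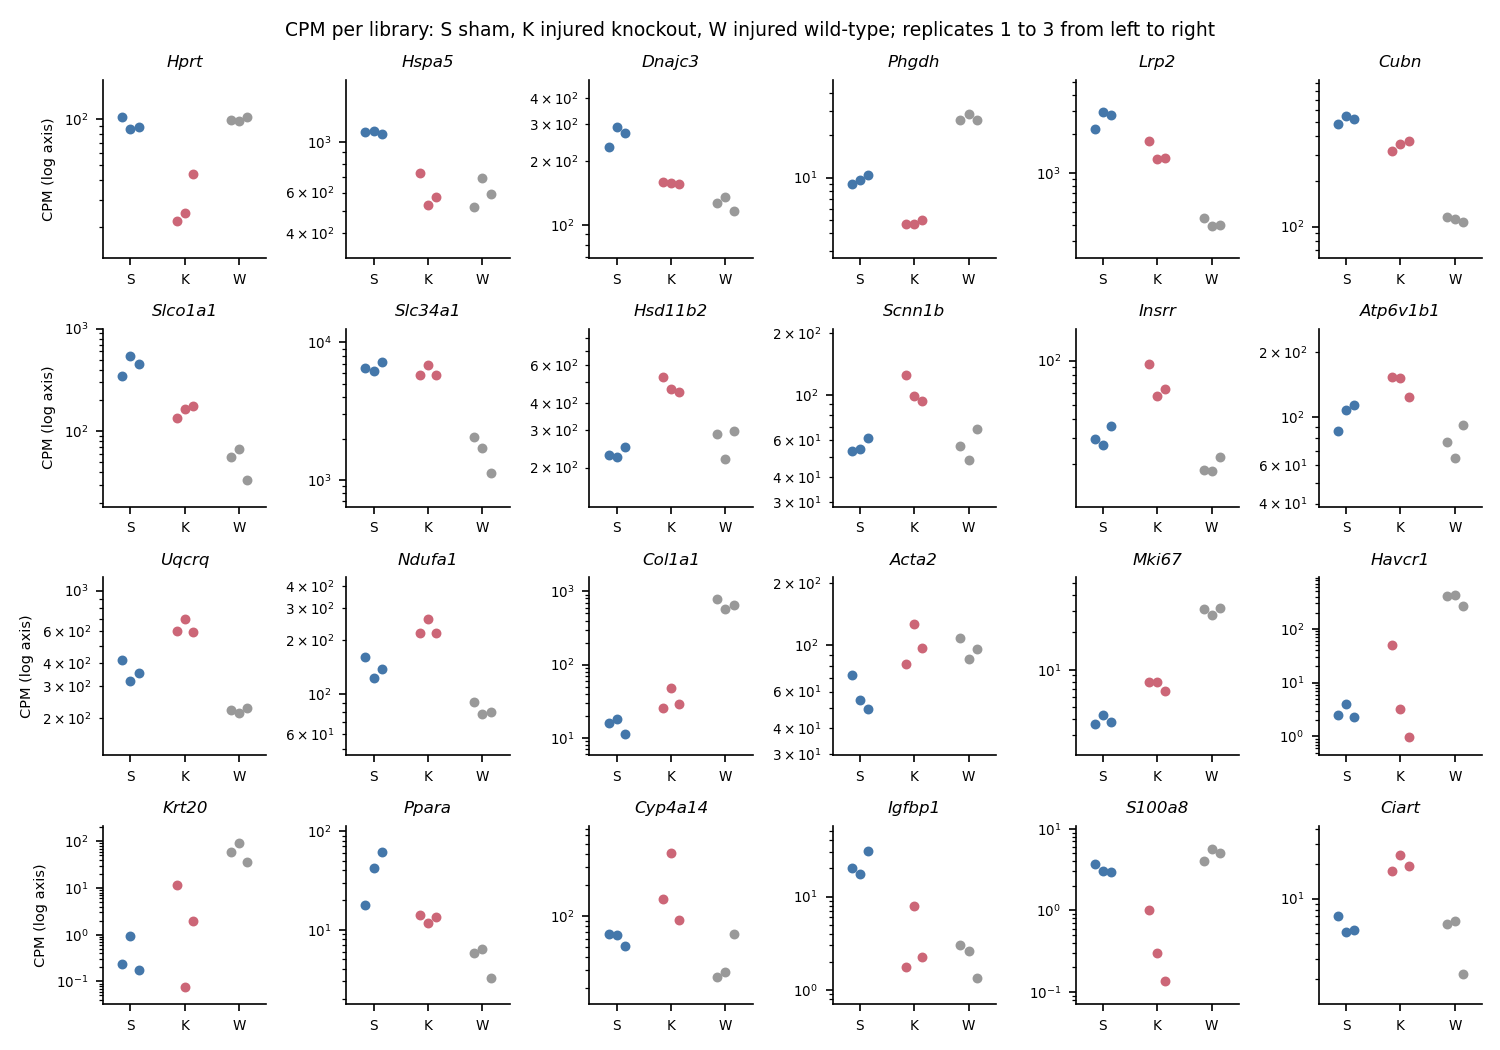
CPM of 24 genes (log axis, scaled per gene) in each library of sham (S, blue), injured knockout (K, red) and injured wild-type kidneys (W, grey), with replicates 1 to 3 from left to right. The chaperones, Lrp2 and Slco1a1 lie below sham in all knockout libraries and Hsd11b2 and Uqcrq above, while Havcr1 and Krt20 are raised in knockout replicate 1 and only slightly or not in the other two.

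Classical markers of tubular injury separated the 3 knockout kidneys from each other. Havcr1, which encodes KIM-1, stood at 2.46, 3.93 and 2.32 CPM in sham, at 51.1, 3.17 and 0.96 CPM in knockout replicates 1, 2 and 3, and at 266.7 to 422.8 CPM in injured wild-type. Only replicate 1 lay above sham, and the gene was not called (log2 fold change 2.65 ± 1.02, adjusted p = 0.0914). Krt20, a keratin of injured tubules, stood at 11.6, 0.08 and 1.93 CPM in the knockout against 0.18 to 0.94 CPM in sham (adjusted p = 0.0664). Lcn2, which encodes NGAL, stood at 14.1, 2.34 and 1.38 CPM against 2.08 to 2.82 CPM. The chemokine gene Ccl2 stood at 5.77, 0.38 and 0.28 CPM against 0.48 to 1.495 CPM. In all 4 genes replicate 1 exceeded every sham library. Without replicate 1 the log2 fold changes of Havcr1 and Lcn2 were -0.52 and -0.44, and neither these genes nor Krt20 were called. Havcr1 was called higher without knockout replicate 3 and Krt20 without knockout replicate 2; with no filter on low counts Havcr1, Krt20 and Lcn2 all were. Without replicate 1, Ccl2 turned lower than sham, with a log2 fold change of -1.79 (adjusted p = 0.0424), against 0.91 (adjusted p = 0.48) with it.

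Of 39 tested members of the tubular injury and failed repair list, 5 rose and 3 fell, beside 8.13% and 9.48% of all tested genes. The median was 0.13, where wild-type injury raised 34 members with a median of 2.27. In 18 of the 39 knockout replicate 1 was the highest of the 6 libraries, or 46.2%, against 20.6% of all tested genes. Krt7, a simple-epithelium keratin also made in the collecting duct, was called in every setting, at 189.8, 168.6 and 148 CPM against 101.5, 98.5 and 102.4 CPM (log2 fold change 0.74 ± 0.12). Spp1, which encodes osteopontin, stood at 1038, 530.8 and 406.9 CPM against 389.2, 321.4 and 348.6 CPM (log2 fold change 0.90, adjusted p = 0.0452) and lost its call in 11 of 19 alternatives. Lgals3, which encodes galectin-3, stood at 105.2, 58.7 and 56.8 against 37.0 to 45.1 CPM and lost it without sham replicates 2 or 3 and in the length-corrected fit. The higher members numbered 1 when sham replicate 2 or sham replicate 3 was left out, 2 and 3 without injured wild-type replicates 1 and 2, and 1 in the length-corrected fit. The lower ones numbered 1 without sham replicate 2 and 5 without knockout replicate 1.

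Several collagen genes of the scar matrix were above sham and far below injured wild-type, while the collagens Col8a1 and Col12a1 were below sham. Of 42 matrix members 9 rose, beside 8.13% of all tested genes. The 4 that fell were a share near the 9.48% of all tested genes. The median log2 fold change was 0.34, against 2.51 for wild-type injury. Col8a1 and Col12a1 had log2 fold changes of -1.09 and -0.50 and lost their calls in 8 and 10 of 19 alternatives. Summed levels were not higher, at 1823, 2596 and 2048 CPM in the knockout, 2333, 2702 and 2255 CPM in sham and 7933 to 9639 CPM in injured wild-type. Knockout replicate 2 was the highest of the 6 libraries in 29 of the 42 members, and sham replicate 3 the lowest in 21. Col1a1, which encodes a type I collagen chain, stood at 15.8, 18.4 and 11.5 CPM in sham, 25.5, 48.7 and 28.7 CPM in injured knockout and 788.5, 578.8 and 656.1 CPM in injured wild-type kidneys (against sham, log2 fold change 1.17 ± 0.25, adjusted p = 0.0114). Knockout and sham did not overlap. It kept the call in every alternative. Col3a1, Fn1 and Col5a3 had log2 fold changes of 0.88, 0.64 and 1.02; Col3a1 and Fn1 lost their calls without sham replicates 1 or 3 or knockout replicate 2, Col3a1 without knockout replicate 3 and Fn1 without knockout replicate 1, and Col5a3 without sham replicate 3. Called matrix genes numbered 4, 5 and 1 higher without sham replicates 1, 2 and 3 and 2 without knockout replicate 2. The 4 lower members became 2, 1 and 2 without sham replicates 1, 2 and 3 and 2 without any 1 of the knockout replicates.

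Timp3, an inhibitor of matrix metalloproteinases, was the matrix member that fell furthest with a call in every setting, from 681.3, 1052 and 982.8 to 428.9, 469.2 and 359.8 CPM (log2 fold change -1.11 ± 0.21). It overlaps Syn3 on the other strand. Among contractile genes Acta2 and Myh11 were higher. Acta2, which encodes smooth muscle actin, stood at 72.2, 54.8 and 49.7 CPM in sham and 81.2, 126.9 and 97.5 CPM in the knockout (log2 fold change 0.79, adjusted p = 0.0147). Injured wild-type kidneys held 86.0 to 108.6 CPM, which overlapped the knockout. Acta2 lost its call without sham replicates 2 or 3. Myh11, smooth muscle myosin, rose by 0.59 on the log2 scale, while in injured wild-type kidneys its log2 fold change was -1.12; it lost its call without sham replicates 2 or 3 or knockout replicate 2. Of 20 fibroblast, smooth muscle and pericyte members 4 rose and 0 fell, beside 8.13% and 9.48% of all tested genes. The count of higher members was 0 without sham replicates 2 or 3 and 2 without knockout replicate 2.

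A receptor, 2 SMAD genes, a ligand subunit and Skil from the TGF-beta signalling list were below sham. In this pathway ligand binding to Tgfbr2 leads to phosphorylation of SMAD3, which enters the nucleus with SMAD4. Of 28 members 5 fell and 0 rose, beside 9.48% and 8.13% of all tested genes. The median was -0.27, where wild-type injury raised 16 members. Smad3 stood at 46.4, 53.7 and 51.0 CPM in sham, 26.4, 32.8 and 36.4 CPM in the knockout and 61.3 to 72.6 CPM in injured wild-type kidneys (against sham, log2 fold change -0.66 ± 0.13, adjusted p = 0.00898). Tgfbr2 stood at 85.3, 100.1 and 87.7 against 69.7, 63.1 and 62.3 CPM, with its call lost without sham replicate 2. In both genes the 3 groups did not overlap, with the knockout lowest. Inhbb, the activin beta-B subunit, fell by 2.11 on the log2 scale, from 13.6, 10.5 and 8.99 to 2.85, 1.89 and 2.89 CPM, and lost its call without sham replicate 2 or knockout replicates 2 or 3. Skil had a log2 fold change of -0.46 and lost its call in 6 of 19 alternatives. The ligand gene Tgfb1 was not called (log2 fold change -0.34, adjusted p = 0.165). Called members numbered 1 without sham replicate 2 and 3 without sham replicate 3, knockout replicate 2 or knockout replicate 3.

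Some cell division genes were above sham. Of 33 members 11 rose and 0 fell, beside 8.13% and 9.48% of all tested genes. The count of higher members was 7 without sham replicate 2, 6 without knockout replicate 2 and 7 in the length-corrected fit. Mki67, the proliferation antigen Ki-67, stood at 3.64, 4.32 and 3.81 CPM in sham, 7.97, 7.92 and 6.74 CPM in the knockout and 27.7 to 31.3 CPM in injured wild-type (log2 fold change against sham 0.94 ± 0.15, adjusted p = 0.00505). Cdk1, the mitotic kinase, stood at 0.70, 0.89 and 0.71 against 3.29, 3.47 and 1.79 CPM. Neither gene overlapped between the groups or lost its call in any alternative. Of 18 tested members of the senescence and p53 list Cdkn2b and Lmnb1 fell and Bax and Phlda3 rose, with a median of 0.02. Both counts were shares near the 9.48% of all tested genes that fell and the 8.13% that rose. The 2 higher became 0 or 1 when any single library was left out and 0 in the length-corrected fit. Cdkn2b, which encodes the cell-cycle inhibitor p15, stood at 1.52, 1.72 and 1.55 CPM in sham and 0.37, 0.38 and 0.41 CPM in the knockout (log2 fold change -2.03 ± 0.31), with a log2 fold change of 1.36 in injured wild-type. Lmnb1, which encodes lamin B1, had log2 fold changes of -0.80 and 1.64 in the same contrasts.

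Few T, NK, B, plasma cell and macrophage genes were called, beside 17.6% of all tested genes. The edgeR test called 0 of 21 tested T and NK cell members; at unadjusted p under 0.05 there were 1 higher and 5 lower, DESeq2 called 1 lower and limma-voom 0. It called 0 of 10 B and plasma cell members, with 0 higher and 2 lower at unadjusted p under 0.05 and 0 by either other tool. Of 30 macrophage members 1 rose and 2 fell, where wild-type injury raised 27; the 1 higher was lost when any 1 library other than knockout replicate 1 was left out and in the length-corrected fit, and the 2 lower became 1 and 0 without sham replicates 1 and 2, 5 without knockout replicate 2 and 4 in the length-corrected fit. Summed macrophage levels were 469.9 to 600.4 CPM in sham, 340.7 to 465.5 CPM in the knockout and 4615 to 4915 CPM in injured wild-type. Neutrophil genes were lower. Of 8 tested members of 12 listed, 4 fell and 0 rose, and 2 of these calls were left without any 1 of sham replicates 2 and 3 and knockout replicates 2 and 3. S100a8, a subunit of calprotectin, stood at 3.75, 3.05 and 2.92 CPM in sham, 1.02, 0.30 and 0.14 CPM in the knockout and 4.001 to 5.65 CPM in injured wild-type (log2 fold change against sham -2.73 ± 0.48, adjusted p = 0.00696). Retnlg had 71 counts over the 3 sham libraries and 1 over the 3 knockout libraries.

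The NF-kB list of 36 members gave 4 lower, a share near the 9.48% of all tested genes, and 1 higher, beside 8.13%. Tlr4, the receptor for endotoxin, stood at 5.75, 5.98 and 4.94 CPM in sham, 1.90, 2.26 and 2.68 CPM in the knockout and 8.09 to 10.99 CPM in injured wild-type (log2 fold change against sham -1.28 ± 0.22, adjusted p = 0.00626). Cyld, a deubiquitinase that restrains the pathway, fell by 0.57 on the log2 scale, and both kept their calls in every alternative. Nfkb1 had a log2 fold change of -0.44 and lost its call in 10 of 19 alternatives. The 4 lower members became 2 without sham replicate 2 and 8 without knockout replicate 1, and the 1 higher was lost without sham replicates 2 or 3 or knockout replicates 2 or 3 and in the length-corrected fit. Of 30 cytokine, chemokine and adhesion members, the adhesion genes Cx3cl1 and Icam1 fell, each losing the call without sham replicates 1 or 2 or any 1 knockout replicate, Icam1 also without injured wild-type replicate 1.

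Genes of fuel metabolism were called in both directions, beside 8.13% of all tested genes that rose and 9.48% that fell. Of 29 glycolysis members 3 rose and 0 fell, namely Aldoa, Bsg and Pfkm, with log2 fold changes of 0.53, 0.33 and 0.36; the length-corrected fit called 0, and the count was 0 without sham replicates 2 or 3 and 1 without injured wild-type replicates 1 or 2 or any 1 knockout replicate. Hk2, the inducible hexokinase, was at 1.02, 0.75 and 1.72 CPM against 0.88 to 1.27 CPM in sham and 14.98 to 22.8 CPM in injured wild-type. Ldha, lactate dehydrogenase A, was not called (log2 fold change 0.09). Of 44 fatty acid oxidation and peroxisome members 7 rose and 3 fell. Wild-type injury lowered 38 of them.

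Within that list Ppara, Acadvl (log2 fold change -0.75) and Acot4 (log2 fold change -0.39) fell. Cyp4a14 and Ucp2 were among the 7 members that rose. Ppara, the nuclear receptor for fatty acids, stood at 17.9, 42.7 and 61.1 CPM in sham and 14.03, 11.8 and 13.6 CPM in the knockout (log2 fold change -1.63 ± 0.37, adjusted p = 0.0146), and sham replicate 1 lay close to the knockout. It lost its call without sham replicates 2 or 3. Cyp4a14, a fatty acid hydroxylase, stood at 67.3, 65.6 and 50.8 against 146.2, 404.6 and 92 CPM (log2 fold change 1.81 ± 0.49), with knockout replicate 2 far above the rest; its call ended without sham replicates 1, 2 or 3 or knockout replicate 2. Ucp2, a mitochondrial carrier, stood at 143.7, 134.4 and 146 against 238.5, 401.7 and 217.6 CPM and kept its call. The 7 higher members became 3, 1 and 2 without sham replicates 1, 2 and 3, 4 without injured wild-type replicate 1, 12, 2 and 3 without knockout replicates 1, 2 and 3 and 2 in the length-corrected fit. The 3 lower ones became 0 without sham replicates 2 or 3 and 1 without knockout replicate 3.

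Clock, osmolyte and hormone genes gave smaller sets. Of 23 clock members 1 rose and 5 fell, beside 8.13% and 9.48% of all tested genes. Ciart, a repressor of the clock, stood at 7.09, 5.09 and 5.30 CPM in sham, 17.3, 23.7 and 19.1 CPM in the knockout and 2.20 to 6.36 CPM in injured wild-type (log2 fold change against sham 1.78 ± 0.32, adjusted p = 0.00733). Cry1, which represses CLOCK and BMAL1, stood at 24.5, 24.5 and 20.2 against 7.60, 9.20 and 14.2 CPM. Rora, an activator of Bmal1 transcription, fell by 0.996 on the log2 scale. The sources used here do not give the hour at which kidneys were taken. The 5 lower clock members became 2 without sham replicate 2 or 3 and 3 without knockout replicate 3, and the 1 higher became 2 and 3 without injured wild-type replicates 2 and 3. Slc5a3, the inositol transporter that responds to tonicity, stood at 246.2, 303.4 and 234.5 against 110.4, 109.6 and 115.1 CPM (log2 fold change -1.23 ± 0.13, adjusted p = 0.00387). Among blood pressure genes, Agt, which encodes angiotensinogen, rose by 0.95 on the log2 scale, and Enpep, the peptidase that degrades angiotensin II, fell by 0.92.

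In the remaining lists most calls rested on single libraries. Beside the counts that follow, 8.13% of all tested genes rose and 9.48% fell. In the hypoxia list of 18 tested members P4ha1, Ndrg1 and Ero1l fell and Ddit4 rose. Ndrg1, a stress-responsive gene induced in hypoxia, stood at 1217, 1324 and 1971 CPM in sham and 831.9, 825 and 730.6 CPM in the knockout (log2 fold change -0.92 ± 0.19, adjusted p = 0.0106). Ndrg1 and P4ha1, a collagen prolyl hydroxylase, kept their calls in every alternative, whereas Ero1l lost it in 13 of 19 alternatives and Ddit4 without sham replicates 1 or 3 or knockout replicate 2 and in the length-corrected fit. Slc40a1, the iron exporter ferroportin, fell by 0.57 on the log2 scale and kept its call in every alternative, while wild-type injury gave a log2 fold change of 0.63. Hmox1, which encodes heme oxygenase, stood at 193, 110.9 and 81.1 against 56.0, 59.3 and 55.6 CPM, and lost its call without sham replicate 2 or knockout replicate 3. Pdha1, a subunit of pyruvate dehydrogenase, and Psmd1, of the proteasome cap, fell by 0.77 and 0.85 on the log2 scale and kept their calls in every alternative. In the lists of these genes, Mpc1 rose among 24 members of the tricarboxylic acid cycle and lost its call in 11 of 19 alternatives. Psmb6, Psmb5 and Psma7 rose among 31 proteasome members; these 3 calls became 8, 0 and 0 without sham replicates 1, 2 and 3, 1 without knockout replicate 2 and 0 in the length-corrected fit. Ugt1a7c, a glucuronidation enzyme, stood at 154.6, 206.7 and 233.4 against 61.9, 77.6 and 62.6 CPM, well below sham in all 3 knockout libraries.

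Idi1, Stard4 and Acly of the cholesterol and fatty acid synthesis list fell, and all 3 calls were lost without sham replicate 2, and that of Acly without sham replicate 3 as well. The phase II conjugation list of 31 members gave 6 higher and 4 lower, with 0 to 6 and 1 to 6 over single libraries left out and 1 and 1 in the length-corrected fit. The cytochrome P450 list of 27 members gave 4 higher and 1 lower (0 to 5 in each direction; 1 higher in the length-corrected fit), and the list of 49 amino acid genes 4 higher and 6 lower (0 to 5 and 1 to 8; 0 higher in the length-corrected fit). Of 21 complement members Cfb and C5ar1 fell, and of 34 interferon-stimulated members Oas1a rose and Gbp7 and Iigp1 fell; these counts ran from 0 to 2, from 0 to 2 and from 1 to 5, and Oas1a was not called in the length-corrected fit. Of 18 acyltransferases and deacylases linked to lactylation Kat2b, Ep300 and Aars fell and Hdac3 rose, and without sham replicate 2 all 4 calls were lost. The defining lists of tissues outside the kidney gave 0 calls by edgeR, DESeq2 and limma-voom, and 0 members at unadjusted p under 0.05, among 4 adipocyte, 4 skeletal muscle, 6 erythrocyte and 1 adrenal cortex genes tested. In the lists above with 0 calls in 1 direction, at most 3 members had an unadjusted p under 0.05 in that direction, DESeq2 called at most 1 and limma-voom 0, except for the 5 T and NK cell members given above; the ribosomal lists were not counted in this.

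The strongest single falls included Tmppe, Tgtp1, Pdpr and Srd5a2, with log2 fold changes of -2.16, -1.995, -1.89 and -1.88. All of these kept their calls in every alternative. Igfbp1, an insulin-regulated binding protein of IGF, showed the largest fall among protein-coding genes at 5 CPM or more, from 20.2, 17.4 and 30.4 to 1.75, 7.99 and 2.27 CPM (log2 fold change -2.51 ± 0.48, adjusted p = 0.00882), and was low in injured wild-type as well, at 1.33 to 3.04 CPM. Myc, the growth regulator, stood at 22.2, 71.6 and 18.0 against 12.9, 4.45 and 7.70 CPM and lost its call without sham replicate 2 or knockout replicates 2 or 3. Hipk2, a kinase acting on p53, stood at 15.1, 35.4 and 32.6 against 8.62, 7.16 and 7.91 CPM. Socs3, the feedback inhibitor of cytokine signalling, fell by 1.87 on the log2 scale where wild-type injury raised it by 2.54; it lost its call without sham replicates 1 or 2 or knockout replicates 2 or 3. On the higher side Plk3, a stress-activated kinase, stood at 22.3, 25.8 and 26.3 against 139.6, 49.9 and 67.2 CPM (log2 fold change 1.79 ± 0.34, adjusted p = 0.0087), with knockout replicate 1 the highest. Col26a1, a collagen, had the largest rise among protein-coding called genes at 5 CPM or more without overlap, from 2.81, 2.33 and 2.74 to 13.1, 9.88 and 7.43 CPM (log2 fold change 1.95 ± 0.35).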

How the data were processed

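Whole-kidney total RNA of mice gave 9 libraries, 3 per group, made per the labels' protocols with a NEBNext Ultra kit. The deposited values were raw counts per Ensembl gene for 56305 identifiers; no normalization had been applied to them. The submitters' processing notes name mm10 and DESeq2 1.16.1; the sources used here do not give the aligner, the counter or whether strand was used. GENCODE M21 (GRCm38) matched 55227 identifiers; the rest held at most 0.0206% of counts.

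edgeR 4.0.16 in R 4.3.3 (filterByExpr, TMM, quasi-likelihood test) was fitted to all 9 libraries with 1 term per group. The contrast of injured knockout against sham was tested over 15974 genes, with Benjamini-Hochberg adjustment and a false discovery rate of 0.05. SE was the size of the log2 fold change divided by the square root of F. CPM use TMM library sizes. Named genes were Pfkfb3; the 12 largest rises and 12 largest falls among protein-coding called genes at 5 CPM or more without overlap; the 6 largest rises and falls in CPM; the 2 lowest p in each of 49 lists; and a panel of 45 genes. Further list members and Hprt were named after their values were seen. The comparison, lists and panel were chosen with earlier results of these data known. Alternatives were other scalings, DESeq2 1.42.0, limma 3.58.1 (voom), other filters, 6 libraries alone, a replicate block, each library left out and, added after the data were seen, offsets for exon length and GC content. The procedure was tested on simulated data. No libraries were duplicates: counts of every pair differed beyond sampling noise (chi-square per degree of freedom at least 12.5).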

Additional observations from a re-analysis of the deposited data

How the results depend on the processing

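Called genes numbered 2813 and moved by less than 1.5 times under DESeq2 size factors (2799), library size alone (2810), DESeq2 (3552), limma-voom (2670), no low-count filter (3428 of 29048 tested), a mean CPM of 1 (2924), the 6 libraries alone (2421) and library sizes without mitochondrial and the 20 highest genes (2968). Of the called genes 46.1% were higher; 38.9% with library size alone and 55.7% with the last. Offsets for exon length and GC content gave 1649, with 667 higher and 982 lower. A false discovery rate of 0.01 left 564, with 230 higher and 334 lower, and a log2 fold change of at least 1 left 440, with 222 higher and 218 lower. Leaving out single libraries gave 640 to 2868 called, 253 to 1318 higher and 387 to 1550 lower. Of calls shared with the main fit, 0 changed sign in any of these settings. Among genes named that were called in either setting, Ccl2 turned to -1.79 without injured knockout replicate 1 (range over single libraries left out -1.79 to 1.445) and Mrpl34 to -0.077 with length and GC offsets. Without a call in either setting, Havcr1 and Lcn2 turned to -0.52 and -0.44 without knockout replicate 1, Hk2 to -0.19 without knockout replicate 3, Atf4 to -0.15 with the offsets and Xbp1 to 0.03 without knockout replicate 2; Pfkfb3, Ldha and Slc4a1, all near 0, also took both signs. The difference in mitochondrial share was 4.36 points without the 20 highest nuclear genes.

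The replicate numbers did not pair the samples: same-numbered sham and knockout libraries had correlations of -0.119, -0.046 and -0.057 in their deviations. A replicate block gave 2048 called genes. The cause of these differences between settings was not tested. With 3 libraries a group, a gene that was not called is not shown to be at sham level.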

Other observations

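Hprt, the X-linked purine salvage enzyme often used as a reference gene, at X:52988137 to 53021659 (GRCm38, plus strand), was lower in the injured knockout than in either wild-type group. It stood at 103.3, 86.5 and 89.1 CPM in sham, 98.3, 96.6 and 103.5 CPM in injured wild-type and 21.7, 24.6 and 44.1 CPM in injured knockout kidneys. The log2 fold change against sham was -1.62 ± 0.22 (SE; adjusted p = 0.00492 by edgeR's quasi-likelihood test), and against injured wild-type -1.72 (adjusted p = 4.03e-05). The call held in all alternatives, with log2 fold changes of -2.01 to -1.43, and wild-type injury gave 0.10 (adjusted p = 0.707). The nearest tested gene, Phf6 at 31.2 kb, had -0.45 against sham (adjusted p = 0.0729) and -0.84 against injured wild-type (adjusted p = 0.000865). Of the tested genes within 1 Mb, AW822252 and Gpc4 were also called lower than sham, with log2 fold changes of -2.31 (adjusted p = 0.0264) and -0.42 (adjusted p = 0.0396). The sources used here do not give the genotype of the mice at this locus. Hprt was singled out after its values were seen.

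Some genes differed widely between the knockout libraries. The ribosomal protein retrocopy Rps3a3 stood at 117 CPM in knockout replicate 1 and at 0.38 and 0.41 CPM in replicates 2 and 3, against 0.06 to 0.29 CPM in sham. Rps13-ps1 stood at 0.15 CPM in knockout replicate 1 and 16.7 and 13.9 CPM in replicates 2 and 3, and in injured wild-type kidneys at 0.23, 11.7 and 14.9 CPM. Gm1821 stood at 66.0 CPM in knockout replicate 2 and at 8.04 and 7.98 CPM in replicates 1 and 3, against 32.6 to 42.1 CPM in all 3 injured wild-type libraries. The causes were not tested.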
